A study of Mus musculus with 9 samples.

Results

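The colony-stimulating factors and their receptors were followed in the stromal vascular fraction (SVF) of mouse fat through the first days after surgical priming. The 8 members were taken by gene symbol, as Csf1, Csf2, Csf3, Csf1r, Csf2ra, Csf2rb, Csf2rb2 and Csf3r, among 18193 genes that the array annotation names. They are represented by 15 probe sets that carry exactly 1 gene symbol and by 1 probe set that carries both Csf2rb2 and Csf2rb. A probe set is a group of short probes against 1 transcript. All 8 members were measured, each by a probe set called present on all 9 arrays, and 1 of the 15 probe sets, a dim one for Csf2ra, did not pass the detection filter.

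The SVF holds the stromal cells, vessel cells and leukocytes recovered from digested fat once the buoyant adipocytes have been discarded. Inguinal subcutaneous fat was taken from wild-type BALB/c mice aged 10 weeks on day 0, day 1 or day 3, with 3 individual mice for each day and 1 array for each mouse. In the study, priming meant mincing of the fat together with ligation of its feeding artery, and the labels speak of priming and count days from the injury. Day 0 is the reference for both later days, and no sham-operated mice of days 1 and 3 were arrayed here, so the effects of priming cannot be told apart from those of anaesthesia, the skin cut and the days passed.

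Colony-stimulating factors are secreted proteins that keep blood precursors and mature myeloid cells alive, dividing and active. Csf1 (macrophage colony-stimulating factor, M-CSF) acts on the receptor tyrosine kinase Csf1r, on which most tissue macrophages depend. Csf2 (granulocyte-macrophage colony-stimulating factor, GM-CSF) binds an alpha chain, Csf2ra, which joins the signalling beta chain Csf2rb, and Csf3 (granulocyte colony-stimulating factor, G-CSF) acts on Csf3r, the receptor that drives neutrophil production and release. In mice the beta chain gene has a neighbouring copy, Csf2rb2, whose protein serves interleukin-3 alone. After tissue damage, stromal, endothelial and immune cells release these factors in response to interleukin-1 and tumour necrosis factor.

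The arrays were of like quality. Detection calls of present numbered 24106 to 26299 an array among 45101 probe sets, the actin 3' to 5' ratio was 1.15 to 1.32, and Pearson correlations of log2 signal were 0.971 to 0.988 within a day and 0.902 to 0.971 between days. Fibroblast and stromal progenitor markers were present on every array in all 8 genes measured (Pdgfra, Dcn and Col1a1 among them), endothelial markers in 6 of 6 and macrophage markers in 13 of 13. Of the 3 mature adipocyte markers measured, Adipoq was present on 9 arrays and Cidec on 8, and Lep was absent on all arrays. Their summed signal was 597.7 to 934.1 on day 0, 431.3 to 562.9 on day 1 and 300.5 to 526.2 on day 3. In these bulk samples, fewer or more cells of a type cannot be told apart from less or more RNA per cell.

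Promoter windows are shown for 3 receptor genes that were all higher on both later days, to give the sequence context in which they are read. RefSeq windows (build GRCm38.p6) were used for 5 of the 8 members. No window of Csf3, Csf1r or Csf2rb was used, so the motif counts do not cover these genes. Each line below holds the 250 bases before the annotated start, on the strand of the gene. Capitals mark AGGAAG or its reverse complement, a core recognised by ETS factors such as PU.1, the product of Spi1, which is known to drive myeloid receptor genes. The Csf3r window is chr4:126024409-126024658 on the plus strand, the Csf2ra window is chr19:61228419-61228668 on the minus strand, and the Csf2rb2 window is chr15:78305722-78305971 on the minus strand.
Csf3r: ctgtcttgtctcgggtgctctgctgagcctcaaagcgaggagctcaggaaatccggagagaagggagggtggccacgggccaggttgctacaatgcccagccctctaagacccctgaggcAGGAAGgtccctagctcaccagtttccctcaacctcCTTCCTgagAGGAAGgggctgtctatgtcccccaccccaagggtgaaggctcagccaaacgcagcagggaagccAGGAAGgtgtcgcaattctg
Csf2ra: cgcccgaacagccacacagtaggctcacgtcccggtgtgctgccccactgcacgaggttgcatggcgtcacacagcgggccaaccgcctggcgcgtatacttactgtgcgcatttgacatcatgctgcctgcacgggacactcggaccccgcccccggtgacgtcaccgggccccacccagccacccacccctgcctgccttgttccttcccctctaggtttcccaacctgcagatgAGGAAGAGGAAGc
Csf2rb2: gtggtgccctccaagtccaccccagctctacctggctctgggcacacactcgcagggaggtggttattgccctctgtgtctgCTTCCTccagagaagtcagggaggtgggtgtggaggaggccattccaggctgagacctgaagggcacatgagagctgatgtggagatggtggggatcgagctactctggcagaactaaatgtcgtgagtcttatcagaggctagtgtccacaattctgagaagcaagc

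The AGGAAG core occurred 4 times in the Csf3r window (3 on the gene's strand and 1 on the other), 2 times in the Csf2ra window, where both copies lie side by side just before the start, and 1 time in the Csf2rb2 window. The Csf1 and Csf2 windows held none. Of all 32851 windows of 250 bases, 29.5% held the core on either strand. The other motifs searched on both strands were the C/EBP motif TTNNGNAA (36.8% of windows), the AP-1 motif TGANTCA (6.75%), the STAT motif TTCNNNGAA (7.02%) and the kappaB motif (3.9%). The C/EBP letters were found in the Csf2 and Csf2ra windows, the STAT letters in the Csf2rb2 window alone and the kappaB motif in the Csf1 window alone. A match of letters describes the sequence and does not show a bound site.

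Across the family, all 8 members differed between day 1 and day 0 by limma, 7 being higher and Csf1r lower. By day 3, 5 members were higher than on day 0, namely Csf2, Csf2ra, Csf2rb, Csf2rb2 and Csf3r, and 0 were lower by limma (also 0 at an unadjusted p under 0.05). Among all 11796 genes tested by limma, 10.7% were higher and 17.9% lower on day 1, and 13.6% were higher and 12.5% lower on day 3. The balance on day 1 depends on the scaling, since centring each array on its median turned it from 1268 genes higher and 2110 lower to 1699 and 1272. The median log2 change of the members was 0.83 on day 1 and 0.74 on day 3, against -0.13 and -0.03 for all genes. The 3 arrays of day 1 did not overlap those of day 0 in 7 members, where 40% of all genes showed no overlap, and those of day 3 did not overlap day 0 in 5 members, where 47.2% of all genes did so. Both comparisons use the same 3 arrays of day 0, so they are not independent of each other. The count of 7 on day 1 was 4 when replicate 1 of day 1 was left out, which removed the calls of Csf1, Csf3 and Csf2rb2. In that setting the calls over all genes also fell, from 1268 higher and 2110 lower to 806 and 1130.

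**Figure D1:**
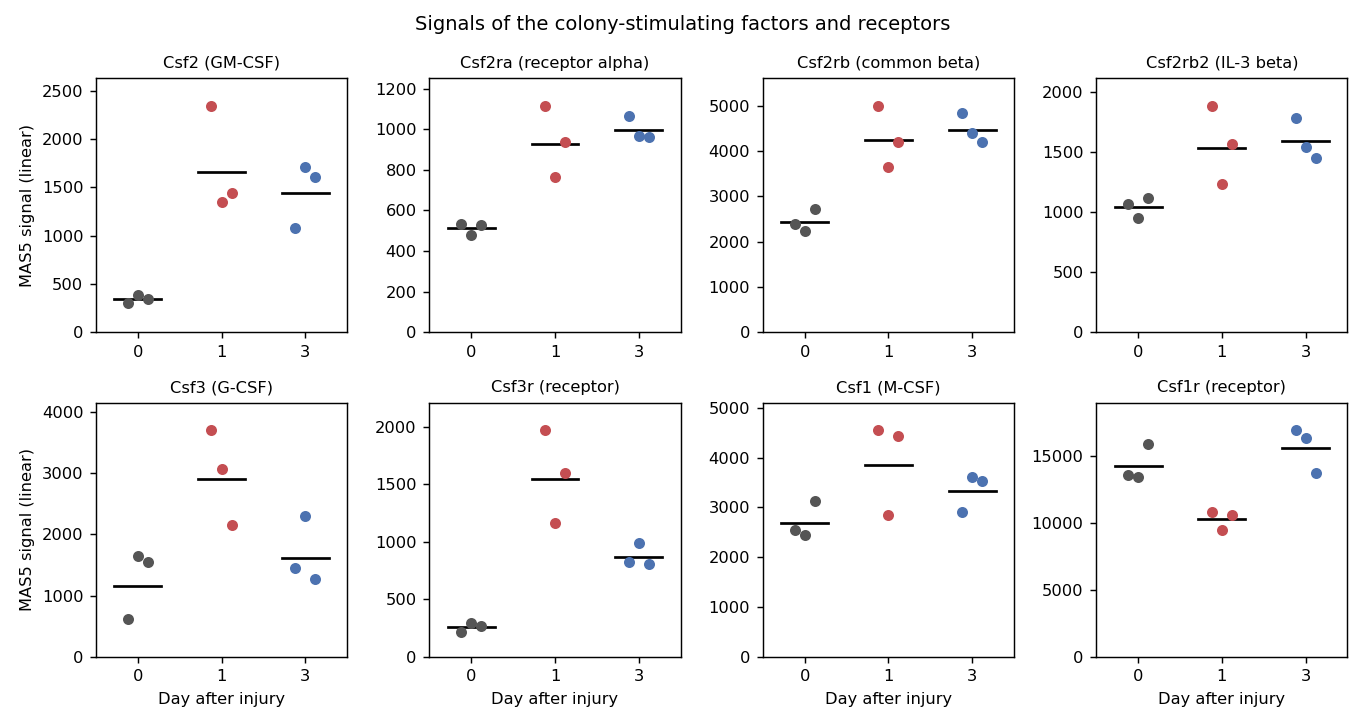
MAS5 signal on a linear scale starting at 0 against day after injury, 1 panel for each member, with 1 point for each mouse (3 on each day) and a bar at the geometric mean of the day. Csf2 and Csf3r lie far above day 0 on both later days, the receptor chains Csf2ra, Csf2rb and Csf2rb2 keep their rise on day 3, and Csf1r dips on day 1 alone.

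Csf2, the ligand GM-CSF, had the highest fold of the 3 ligands. Its signal was 306.8, 383.4 and 340 in the mice of day 0, 2349, 1352 and 1446 on day 1, and 1085, 1715 and 1604 on day 3. Every array of the later days stood above every array of day 0, and the ranges of days 1 and 3 overlapped. The change was 4.86-fold on day 1 (log2 change 2.28 ± 0.22 SE, n = 3 against 3, limma adjusted p = 3.65e-05) and 4.21-fold on day 3 (2.07 ± 0.22, adjusted p = 7.01e-05). Days 3 and 1 differed by -0.21 on the log2 scale, with a 95% interval of -0.70 to 0.28 (adjusted p = 0.56), and no alternative setting ended either call against day 0. Csf2 lies next to Il3 on the chromosome in the RefSeq gene order, and Il3 was not called present on all 3 arrays of any day.

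Csf3, the ligand G-CSF, was raised on day 1 and spread widely between mice. Its signal was 611.1, 1640 and 1550 on day 0, 3703, 3064 and 2154 on day 1, and 1450, 2300 and 1265 on day 3. All day 1 arrays exceeded all day 0 arrays, replicate 1 of day 0 lay far below the other mice of its day, and days 0 and 3 overlapped. Day 1 was 2.5-fold above day 0 (log2 change 1.32 ± 0.35, adjusted p = 0.0179). This call was lost when replicate 1 or replicate 2 of day 1 was left out (adjusted p = 0.0673 and 0.0529). The day 3 value was 0.48 above day 0, with a 95% interval of -0.29 to 1.25 (adjusted p = 0.344). Without replicate 1 of day 0, the day 1 change was 0.86 (adjusted p = 0.0442) and the day 3 change 0.02 (adjusted p = 0.968), and the day 3 change ran up to 0.73 without replicate 2 of day 0. The day 3 value lay 0.84 below day 1 (adjusted p = 0.129), a difference that passed the threshold only when replicate 1 of day 0 was left out (adjusted p = 0.0384).

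Csf1, the ligand M-CSF, showed the weakest difference of the ligands. Its brightest probe set gave 2542, 2439 and 3120 on day 0, 4551, 2844 and 4435 on day 1, and 2907, 3621 and 3540 on day 3. Replicate 2 of day 1 fell within the range of day 0, so these groups overlapped, as did days 0 and 3. The fit called Csf1 1.44-fold higher on day 1 (0.52 ± 0.18, adjusted p = 0.0482), just inside the threshold. The call was lost in 15 of 23 alternatives, among them the mean of its probe sets (0.26, adjusted p = 0.252). It was also missing in 1 more, a single probe set in which the sign reversed (-0.06, adjusted p = 0.874 by limma over all probe sets). Day 3 was 0.32 above day 0 (adjusted p = 0.22). The other 3 probe sets of Csf1 gave 0.44, 0.14 and -0.06 on day 1. In the fit of all probe sets, which adjusts over more tests, no probe set of Csf1 was called on day 1. There the brightest had an adjusted p of 0.0895 and the probe set at 0.44 had 0.0996.

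**Figure D2:**
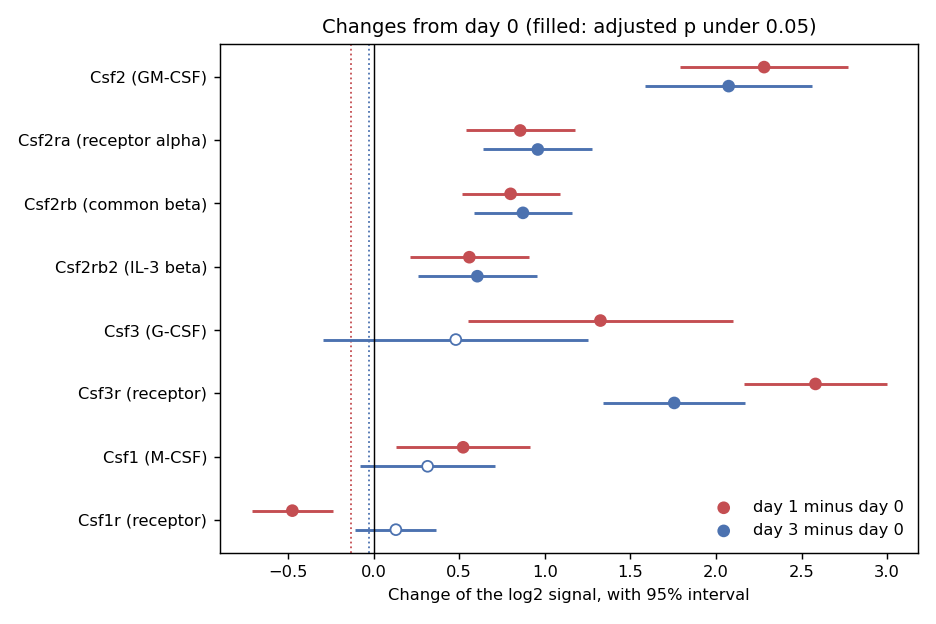
Change of the log2 signal from day 0 (horizontal axis) for each member (vertical axis), with 95% intervals from the fit of 9 arrays, for day 1 in red and day 3 in blue; filled points have an adjusted p under 0.05 and dotted lines mark the median of all 11796 genes. Csf2 and Csf3r stand farthest to the right, and Csf1r on day 1 is the only filled point below 0.

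Csf3r, the G-CSF receptor, had the highest fold of the 8 members on day 1, while Csf2 had it on day 3. Its signal was 219.3, 293 and 266.3 on day 0, 1969, 1166 and 1595 on day 1, and 824.7, 991.1 and 806.1 on day 3. The days were fully separated, with day 0 lowest, day 3 in the middle and day 1 highest. Day 1 was 5.98-fold above day 0 (2.58 ± 0.19, adjusted p = 4e-06) and day 3 was 3.38-fold above it (1.76 ± 0.19, adjusted p = 7.14e-05). From day 1 to day 3 the signal fell by 0.82 ± 0.19 on the log2 scale (adjusted p = 0.0155), though this call was lost without replicate 1 or replicate 3 of day 3 (adjusted p = 0.0669 and 0.0554).

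Markers of neutrophils, the cells best known for Csf3r, moved the same way. Of 11 genes listed, 7 were tested and 5 rose on day 1, 4 rose and 1 fell on day 3, and 3 were lower on day 3 than on day 1. The summed signal of the 9 neutrophil markers on the array was 5980 to 8715 on day 0, 44840 to 77120 on day 1 and 10750 to 22380 on day 3. Most of the day 0 sum came from Il1r2 (4325 to 6933), the marker that fell on day 3 (-1.01, adjusted p = 0.00213). Most of the day 1 sum came from S100a8 (17200 to 32270) and S100a9 (19200 to 33700), and Mmp9 was not called on either day. S100a8, a calcium-binding protein abundant in neutrophils, was 6.22 ± 0.33 higher on the log2 scale on day 1 (adjusted p = 2.9e-07) and 4.11 higher on day 3. Camp was absent on every array, and Cxcr2, the neutrophil chemokine receptor, was present on 0 of 3 arrays of day 0, on 3 of day 1 and on 1 of day 3. Mmp8 and Ngp were each present on 1 of 3 arrays of day 0 and on 3 of each later day. Cxcr2, Mmp8 and Ngp thus passed the filter only through later days, so the filter itself favoured finding them higher there. The limma call of Ngp on day 1 was near the threshold (adjusted p = 0.0452). The part of neutrophil content in the Csf3r change was not tested.

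The chains of the GM-CSF receptor rose on day 1 and stayed up. Csf2ra, the ligand-binding alpha chain, gave 534.3, 479.9 and 528.2 on day 0, 1117, 765 and 940 on day 1, and 1065, 969.6 and 964 on day 3. Both later days lay above day 0 without overlap and overlapped each other. The change was 1.81-fold on day 1 (0.86 ± 0.15, adjusted p = 0.00172) and 1.94-fold on day 3 (0.96 ± 0.15, adjusted p = 0.000712). A second, dim probe set of Csf2ra, present on 2 of 9 arrays, gave 0.90 on day 1 (adjusted p = 0.0368) and 0.67 on day 3 (adjusted p = 0.112) in the fit of all probe sets.

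Csf2rb, the beta chain shared by the receptors for GM-CSF, interleukin-3 and interleukin-5, gave 2390, 2239 and 2718 on day 0, 5007, 3658 and 4193 on day 1, and 4834, 4396 and 4197 on day 3. The later days again stood above day 0 and overlapped each other. The beta chain rose 1.74-fold on day 1 (0.80 ± 0.13, adjusted p = 0.00135) and 1.83-fold on day 3 (0.87 ± 0.13, adjusted p = 0.000678). Its other probe set gave log2 changes of 1.01 and 1.03 on these days.

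Csf2rb2, the interleukin-3 beta chain that lies beside Csf2rb, gave 1070, 951.5 and 1120 on day 0, 1889, 1233 and 1567 on day 1, and 1788, 1545 and 1455 on day 3. No array of the later days fell into the range of day 0. The rise was 1.47-fold on day 1 (0.56 ± 0.16, adjusted p = 0.0229) and 1.52-fold on day 3 (0.61 ± 0.16, adjusted p = 0.016). The day 1 call was lost without replicate 1 or 2 of day 0 or replicate 1 of day 1 (adjusted p = 0.0517 to 0.0877), and the day 3 call without replicate 2 of day 0 or replicate 1 of day 3 (adjusted p = 0.0571 and 0.0745). Csf2rb and Csf2rb2 are near-identical copies, so their probes may share transcripts. The probe set that names both was present on 2 of 9 arrays and gave 0.06 on day 1 (adjusted p = 0.927) and 0.84 ± 0.28 on day 3 (adjusted p = 0.0925).

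Between day 3 and day 1 the receptor chains of this group did not pass the test. The differences were 0.10 for Csf2ra (95% interval -0.21 to 0.42), 0.07 for Csf2rb (-0.21 to 0.36) and 0.05 for Csf2rb2 (-0.30 to 0.39), with adjusted p = 0.664, 0.745 and 0.87. After centring each array on its median these 3 values turned to -0.02, -0.05 and -0.08. The summed signal of 6 monocyte markers was 36380 to 41380 on day 0, 53970 to 61530 on day 1 and 47600 to 50060 on day 3. Of the 6, 4 were higher and 1 lower on day 1, and none was absent on every array. Chil3, 1 of the 4 that were higher, was present on 0 of 3 arrays of day 0. It passed the filter only through the later days, where it was high. Most of the day 0 sum came from Fn1 (16360 to 21030) and F13a1 (9276 to 10630). Fn1 was the marker that was lower on day 1 (-0.44, adjusted p = 0.00897), and F13a1 was not called (0.14). The part of monocyte content in the receptor changes was not tested.

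**Figure D3:**
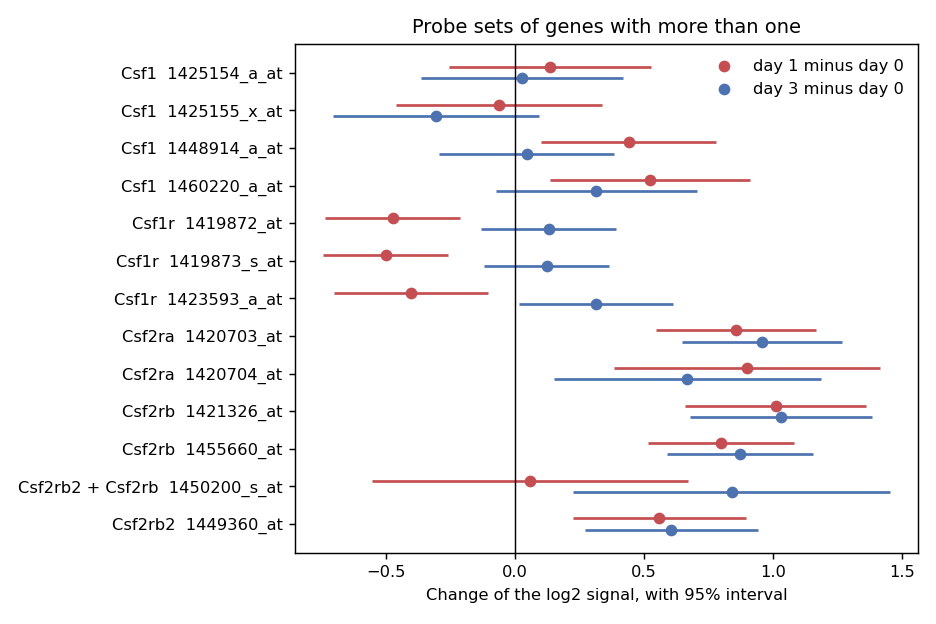
Change of the log2 signal from day 0 with 95% intervals (horizontal axis) for every probe set of Csf1, Csf1r, Csf2ra, Csf2rb and Csf2rb2 (vertical axis), day 1 in red and day 3 in blue, from the fit of 45037 probe sets. The 3 probe sets of Csf1r all lie below 0 on day 1 and those of Csf2rb lie together near 1, whereas the 4 probe sets of Csf1 spread from -0.06 to 0.52 on day 1.

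Csf1r, the M-CSF receptor, ran against the rest of the family. Its signal was 13630, 13440 and 15910 on day 0, 10820, 9453 and 10620 on day 1, and 16940, 16360 and 13780 on day 3. Day 1 lay below both other days without overlap, and days 0 and 3 overlapped. Csf1r was 1.39-fold lower on day 1 (log2 change -0.47 ± 0.11, adjusted p = 0.00885), a difference of -0.36 after median centring (adjusted p = 0.0349). On day 3 it stood 0.13 above day 0, with a 95% interval of -0.11 to 0.37 (adjusted p = 0.406), and 1.52-fold above day 1 (0.60 ± 0.11, adjusted p = 0.00439). All 3 of its probe sets pointed the same way, with -0.50 and -0.41 for the others on day 1. In the fit of all probe sets the latter missed the threshold (adjusted p = 0.0873), while the brightest passed it (adjusted p = 0.0313).

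Macrophage markers were examined beside Csf1r. Of 13 tested, 5 were higher and 0 lower by limma on day 1 (6 and 0 at an unadjusted p under 0.05), and 6 higher and 2 lower on day 3. The 8 that were not called on day 1 included C1qa (0.01) and Timd4 (-0.30). Their summed signal was 52560 to 61130 on day 0, 67560 to 82190 on day 1 and 65690 to 82050 on day 3, and no marker was absent on every array. Adgre1, which encodes F4/80, was 0.71 ± 0.15 higher on the log2 scale on day 1 (adjusted p = 0.00542) and 1.40 ± 0.15 higher on day 3 (adjusted p = 5.83e-05). Cd68 was 1.04 ± 0.14 higher on day 1 (adjusted p = 0.000344). The 2 markers that were lower on day 3 were Timd4 (-1.20 ± 0.15, adjusted p = 0.000165) and Lyve1 (-0.71 ± 0.13, adjusted p = 0.00272). Il34, the second ligand of Csf1r, changed by -1.02 ± 0.20 on day 1 (adjusted p = 0.00376) and by -0.27 on day 3 (adjusted p = 0.337), and like Csf1r it was higher on day 3 than on day 1 (0.75 ± 0.20, adjusted p = 0.0279). Il34 is made by stromal cells, and the summed signal of the 8 fibroblast and stromal progenitor markers was 112700 to 121700 on day 0, 93270 to 109300 on day 1 and 94100 to 102500 on day 3, a shift whose part in the Il34 values was not tested.

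Over the whole family, day 3 differed from day 1 in Csf1r, which was higher, and in Csf3r, which was lower. In this comparison limma called 9.66% of all genes higher and 4.54% lower (1140 and 536 genes, which median centring turned to 659 and 860), and the day groups did not overlap in 2 members against 35% of all genes. The median change of the members was -0.08 and that of all genes 0.09. The remaining 6 members gave log2 differences from -0.84 (Csf3) to 0.10 (Csf2ra).

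The likeness of patterns was measured as the root mean square difference between centred log2 signals over the 9 arrays, as a description. Of all other genes tested, Csf2rb was nearest to Csf2ra, and Csf2ra to Csf2rb, at 0.068. Tmem106a came next for both, followed by Mvp for Csf2ra and B4galt5 for Csf2rb. For Csf2rb2 the nearest were Fem1b, Mitf and the leukocyte integrin Itgb2 (0.082 to 0.092), and for Csf1r they were Fads1, Cdk16 and Tmem109 (0.048 to 0.064). Csf3r lay nearest to Tnf, Osm and Smox (0.148 to 0.188), and Csf2 to Tfec, the inflammasome gene Nlrp3 and the integrin Itgam (0.24 to 0.251). Csf3 had Dlgap1, Fgf7 and the chemokine receptor Ccr1 as nearest genes (0.244 to 0.28), and Csf1 had Hk2, Pim1 and Tnip1 (0.104 to 0.127). Arrays and scaling are shared by all genes, so some likeness is common to any pair.

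Genes around the family were read from 6 lists of known partners, with 80 of 89 genes on the array by name and 77 tested. Together 16 were higher and 17 lower on day 1, with a median log2 change of -0.07, and 19 were higher and 12 lower on day 3, with a median of 0.01. The count of 17 lower on day 1 was 7 without replicate 3 of day 0, 8 without replicate 1 of day 1, 9 without replicate 1 of day 0 or replicate 2 of day 1, and 11 after median centring, beside 20 higher. The count of 12 lower on day 3 was 6 without replicate 3 of day 0 or replicate 1 of day 3. The corresponding shares of all genes are given above. The other listed genes were not analysed here.

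Of 14 regulators of ligand expression tested, 5 were higher and 0 lower by limma on day 1 (2 lower at an unadjusted p under 0.05), and 5 were higher and 1 lower on day 3 (median 0.21 and 0.15). Il23a, which acts upstream of G-CSF through interleukin-17, was 4.52 ± 0.37 higher on the log2 scale on day 1 (adjusted p = 8e-06) and 2.87 higher on day 3. The interleukin-1 genes Il1a and Il1b were 3.68 and 2.87 higher on day 1 and 1.93 and 2.06 higher on day 3. Tnf was 2.39 and 1.58 higher on those days. Nfkbia, the inhibitor of NF-kappaB, was not called (-0.03 and -0.06), nor were Zfp36 on day 1 (-0.25) and Il6 on day 3 (-0.15). Il6 was higher on day 1 (0.48, adjusted p = 0.0445). Il17a was lower on day 3 (-0.79 ± 0.23, adjusted p = 0.0268).

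Among 12 inhibitors and feedback genes, 5 were lower and 0 higher by limma on day 1 (1 higher at an unadjusted p under 0.05), and 3 were lower and 1 higher on day 3 (median -0.33 and -0.22). Cish and Socs2, targets and brakes of STAT5 signalling, were lower, with changes of -0.65 ± 0.15 and -0.59 ± 0.13 on day 1 (adjusted p = 0.0098 and 0.00705) and of -0.55 and -0.82 on day 3. Socs3, the brake on the G-CSF receptor, was -0.34 ± 0.11 on both days (adjusted p = 0.0317 and 0.0338). Cbl, which marks Csf1r for degradation, was -0.65 ± 0.17 on day 1 (adjusted p = 0.0177), while Cblb (-0.96, adjusted p = 0.125) and the phosphatase Ptpn6 (-0.21, adjusted p = 0.396) were not called. Dok1 was the 1 gene that was higher on day 3 (0.47 ± 0.14, adjusted p = 0.0279). Lymphocytes also use several of these genes, and of 5 T cell markers tested 3 were lower on each day, their summed signal being 16450 to 19430 on day 0, 4056 to 12470 on day 1 and 5773 to 8980 on day 3, with Cd4 absent on every array. Their part in these changes was not tested.

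Of 18 signal transducers, 3 were higher and 3 lower on day 1, and 4 higher and 1 lower on day 3 (median 0.00 and 0.04). The Src-family kinase Fgr (1.77 ± 0.18) and the adaptor Tyrobp (1.24 ± 0.19), both of myeloid cells, were higher on day 1 (adjusted p = 5.38e-05 and 0.000817), as was the adaptor Gab2 (0.57). Pik3r1 (-0.88), Stat5b (-0.53) and Jak1 (-0.28) were lower. Stat3, which carries the G-CSF signal, was not called on either day (0.09 and -0.03), and neither was the kinase gene Pik3cd (0.20 and 0.07).

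Of 15 genes that these receptors are known to induce, 6 were higher and 5 lower on day 1, and 5 higher and 4 lower on day 3 (median 0.01 and 0.21). The interleukin-1 receptor antagonist Il1rn was 3.72 ± 0.23 and 2.71 ± 0.23 higher on days 1 and 3 (adjusted p = 1.01e-06 and 1.17e-05), and oncostatin M, Osm, was 2.33 and 1.74 higher. The kinase gene Pim1 was 0.67 ± 0.13 higher on day 1 (adjusted p = 0.00398). The chemokine genes Ccl22 and Ccl24, by contrast, were lower, at -1.78 and -0.54 on day 1 and -1.53 and -1.26 on day 3. The survival gene Mcl1 was not called (0.09 and 0.03), nor were Ccnd1 on day 1 (-0.17) and Id2 on day 3 (0.29). Ccnd1 was higher on day 3 (0.61, adjusted p = 0.00168) and Id2 on day 1 (0.62, adjusted p = 0.00723).

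Of 12 myeloid transcription factors, 2 were higher and 3 lower on day 1, and 4 higher and 3 lower on day 3 (median -0.15 and 0.02). Spi1, which encodes PU.1, was 1.09 ± 0.16 higher on day 1 (adjusted p = 0.000602) and 1.25 ± 0.16 higher on day 3 (adjusted p = 0.000204), and did not differ between these days by the test (0.16, adjusted p = 0.535). Gfi1 was -1.15 ± 0.39 on day 1 (adjusted p = 0.0445), with overlapping groups. Irf4 was lower on both days, at -1.12 and -1.04, and Cebpd was at -0.24 on day 1 (adjusted p = 0.363) and -1.06 on day 3 (adjusted p = 0.00212). Klf4 on day 1 (-0.20) and Cebpb and Egr1 on day 3 (0.20 and -0.17) were not called. Klf4 was lower on day 3 (-0.51, adjusted p = 0.00567). On day 1 Cebpb was higher (0.26, adjusted p = 0.0295) and Egr1 lower (-0.37, adjusted p = 0.00799). Of 6 related cytokine and receptor genes tested, Il34 was the 1 call on day 1 and 0 were called by limma on day 3 (1 at an unadjusted p under 0.05), with Kit at 0.38 and 0.50 and Kitl at -0.06 and -0.28.

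**Figure D4:**
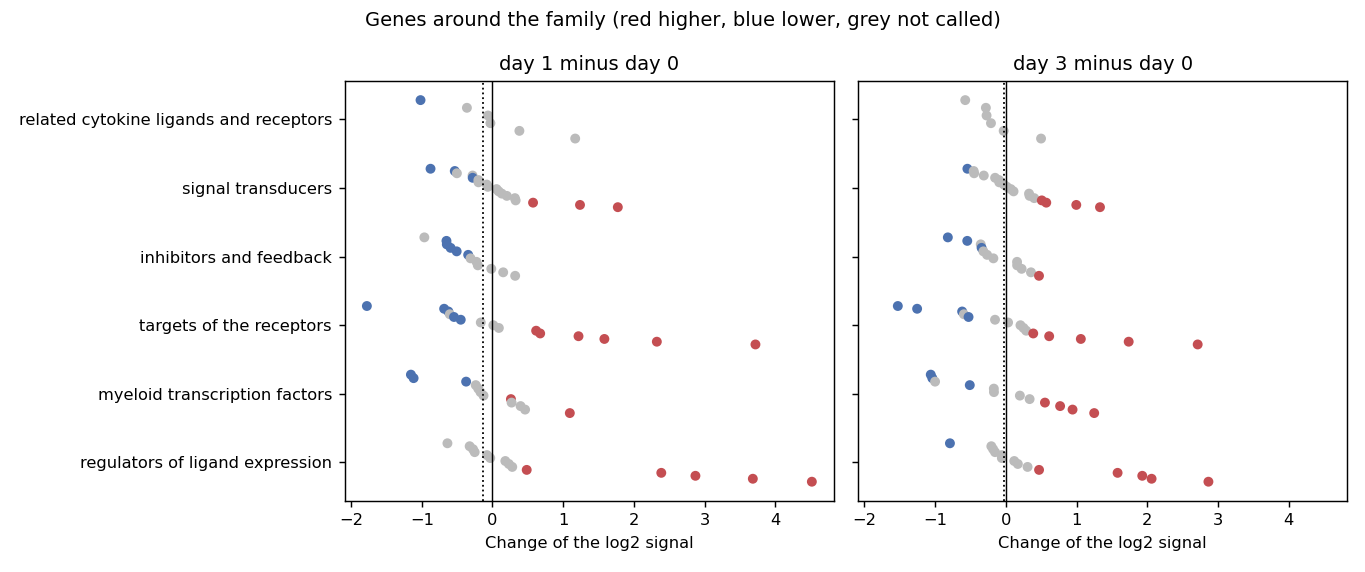
Change of the log2 signal from day 0 (horizontal axis, same scale in both panels) for each of the 77 tested genes of the 6 lists (rows), with 1 point for each gene in red if higher, blue if lower and grey if not called, and a dotted line at the median of all genes. Regulators of ligand expression and targets of the receptors reach farthest to the right on day 1, up to 4.52 and 3.72, while no inhibitor or feedback gene is red on day 1. The value of 4.52 is that of Il23a, measured from a low day 0 signal.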

How the data were processed

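Total RNA of SVFs was labelled and hybridised to Affymetrix Mouse430_2 arrays by the authors, 3 mice on each of 3 days. The deposited files give a signal intensity, a detection call and a detection p-value for each of 45101 probe sets, of which the deposited detection p-value entered no test. The submitters' processing notes name MAS5, and on every array the mean intensity was 500 after trimming 2% of the probe sets at each end, so the authors had scaled the arrays linearly. The precision is limited by the number of arrays.

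Probe sets with exactly 1 symbol were named through the platform annotation (34945, with 932 carrying several symbols, 9160 none and 64 controls left out). Those detected as present in all 3 mice of any day were kept, and the brightest stood for each of 11796 genes. The log2 of the signal, with nothing added, was modelled in R 4.3.3 by limma (version 3.58.1; lmFit, contrasts.fit, eBayes with trend; data.table version 1.17.8), with day as the factor, all 9 arrays and 6 residual degrees of freedom. Tests were two-sided, adjusted by Benjamini-Hochberg over all genes, and called at an adjusted p under 0.05. Single probe sets were fitted with all 45037 probe sets other than controls in the same way. A ± after a log2 change gives the standard error from limma, and the script was tested on simulated data. No genome build is named for the array, and no gene coordinates are given other than those of the RefSeq promoter windows.

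The members, gene lists, tests and alternatives were chosen with earlier results of these data known. All members and their probe sets are named, with, for each list and day, up to 3 called genes of largest change and up to 2 bright genes not called, and the 3 genes nearest to each member. Genes outside that rule (Gab2, Stat5b and Jak1 on day 1, Socs3, Pim1, Ccl24, Il17a, Tnf and the cell type markers) were added after their values were seen. So were the called days of Ccnd1, Id2, Il6, Klf4, Cebpb and Egr1. The settings varied were the normalization (quantile or median centring), an offset of 16 or 64, the filter (none, or presence on all 9 arrays), the probe set (the mean, none of shared transcripts, or each by itself), the variance trend, a replicate block, each array left out, and an analysis of variance at the methods' thresholds (p under 0.05 and 2-fold). The methods name a repeated-measurements form, and a one-way form was run here because each mouse gave 1 array. Figures were drawn with matplotlib.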

Additional observations from a re-analysis of the deposited data

Results flagged for a closer look

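The change from day 0 differed between the later days in 2 members, by the limma test of day 3 against day 1. Csf1r stood 0.605 higher on the log2 scale on day 3 than on day 1 (adjusted p = 0.00439), and Csf3r changed by -0.825 between the same days (adjusted p = 0.0155), a call lost without replicate 1 or replicate 3 of day 3 (adjusted p = 0.0669 and 0.0554).

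The probe set that names both Csf2rb2 and Csf2rb was left out of the gene tests. It gave signals of 124, 96.83 and 168.3 on day 0, 171.4, 149.4 and 89.05 on day 1, and 235.7, 225.9 and 218 on day 3. Day 3 lay above day 0 without overlap, with a log2 change of 0.84 (adjusted p = 0.0925 in limma over all probe sets), and day 1 overlapped day 0.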

How the results depend on the processing

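With 3 mice a day, changes near the threshold depend on single arrays. Csf2 and Csf3r against day 0 kept their calls under all 20 alternatives, and no call against day 0 turned in sign except in 1 probe set of Csf1 (-0.0619 on day 1, where day 3 gave -0.306). Median centring, which moved the median of all genes on day 1 from -0.134 to -0.0139, gave 11 lower pathway genes on day 1 and 3 higher for day 3 against day 1, and for that comparison -0.0211 for Csf2ra, -0.0521 for Csf2rb and -0.0776 for Csf2rb2. Over all genes, it changed the 2110 lower calls of day 1 to 1272, and the calls of day 3 against day 1 from 1140 higher and 536 lower to 659 and 860, and quantile normalization gave 1399 higher and 1501 lower on day 1. The second Csf2ra probe set gave -0.231 for day 3 against day 1.

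A one-way analysis of variance at the methods' thresholds (the methods name a repeated-measurements form), which ask for a 2-fold change, left 2 members higher and 0 lower on day 1, 2 higher on day 3, and 0 higher and 0 lower between days 3 and 1. Of the pathway genes it left 2 lower on day 1, 9 higher and 3 lower on day 3, and 0 higher and 4 lower between days 3 and 1. Among all 11796 genes the same thresholds left 424 higher and 328 lower on day 1, and 522 and 338 on day 3. Between days 3 and 1 they left 245 higher and 200 lower. Without the 2-fold condition, 5129 genes had p under 0.05 and 2760 after Benjamini-Hochberg.

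Leaving out each array in turn gave 4 to 6 members higher on day 1, 4 to 5 higher on day 3 and 0 to 2 lower on day 3 against day 1 (2 without replicate 1 of day 0, 0 without replicate 1 or 3 of day 3). Lower pathway genes numbered 7 to 20 on day 1 (fewest without replicate 3 of day 0), 6 to 15 on day 3 (fewest without replicate 3 of day 0 or replicate 1 of day 3) and 4 to 13 between days 3 and 1 (fewest without replicate 1 of day 3), and higher ones 1 to 10 between days 3 and 1 (fewest without replicate 1 of day 3, most without replicate 3 of day 1). Changes between days 3 and 1 ran from -0.356 to 0.0424 for Csf2, -0.0376 to 0.236 for Csf2ra, -0.0362 to 0.19 for Csf2rb and -0.113 to 0.194 for Csf2rb2.

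With a replicate block, 7 members were higher and 1 lower on day 1, 5 higher on day 3, and 1 higher and 1 lower between days 3 and 1, and 17 pathway genes were higher and 17 lower on day 1. Same-numbered arrays deviated together in 2 of 9 pairs (correlations of -0.147 to 0.331). Differently numbered arrays did so in 5 of 18 pairs (-0.402 to 0.308), so the numbers were not taken to pair mice. The causes of these shifts were not tested.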
